A study of Mus musculus with 9 samples.

Results

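RNA-seq was used to follow 49 genes of the cell division cycle in mouse calvarial osteoblasts as they mineralized in culture. The genes were picked by name from the 40548 genes of the deposited tables, and they fall by their known roles into 14 genes of DNA replication, 18 of mitosis, 8 G1 cyclins and cyclin-dependent kinases (CDKs), 4 transcription factors and 5 CDK inhibitors. Cells from the skull of pups aged 2 to 3 days, labelled C57BL/6 (C57BL/6J in the methods), were grown to confluence and collected at day 0, or after 4 or 7 days of mineralization medium, which in the methods holds ascorbic acid with β-glycerol phosphate. The labels name no transgene, and the methods, which list wild-type and ColI-GFP pups, do not say which gave the RNA. There were 3 libraries per stage, called biological replicates in the methods. No label ties a library to a litter, so p-values measure the spread between these libraries. The mineralized cells were released with collagenase I before trypsin and the others with trypsin alone, so that release cannot be told apart from stage. Levels are given in RPKM, reads on a gene scaled to the library total and to gene length, which can be compared between genes.

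As background, a dividing cell passes from G1 through DNA synthesis (S phase) to mitosis, driven by CDKs bound to cyclins. D-type cyclins with Cdk4 and Cdk6, and E-type cyclins with Cdk2, release E2F transcription factors from the retinoblastoma protein, and E2F then switches on replication genes. Genes of mitosis are switched on later, chiefly through a promoter element called CHR (cell cycle genes homology region), with Foxm1 and B-Myb (Mybl2), and often with NF-Y, which binds CCAAT. CDK inhibitors of the Ink4 and Cip/Kip families oppose these kinases. Osteoblast precursors proliferate before they deposit matrix, and mature osteoblasts divide little.

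Of the 49 genes, 30 were lower and 1 was higher at day 7 than at day 0, and 18 did not pass the test. All 49 passed the filter on low values, a mean CPM (the same without gene length) of at least 1 over the day 0 and day 7 libraries. The test was limma, which fits each gene and borrows variance across genes, on log2(CPM + 0.5), with Benjamini-Hochberg adjustment over 12712 genes and a threshold of 0.05. In the same fit 18.6% of all genes were called lower and 12.6% were called higher. Fold changes below are log2 differences on that scale, day 7 minus day 0, and understate the change of low genes. The median over the 49 genes was −0.55, against −0.11 over all genes tested, and ranged from −1.08 for Kif20a to 1.40 for Cdkn2a. Of the 31 calls, 20 held in each of the 19 other ways of processing or leaving out a library, and these were 7 replication genes, 11 mitosis genes, Cdkn2a and Cdkn2c. An exact two-sided permutation test of single genes cannot go below p = 0.1 with 3 libraries against 3. Of the 49 genes, 32 reached that value. They were those whose day 0 and day 7 libraries did not overlap, 30 lower and 2 higher. Lack of overlap was common among the 12782 genes used as background for such comparisons, with 25.1% lower and 17.1% higher. In bulk RNA, fewer dividing cells and less RNA per dividing cell cannot be told apart.

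**Figure D1:**
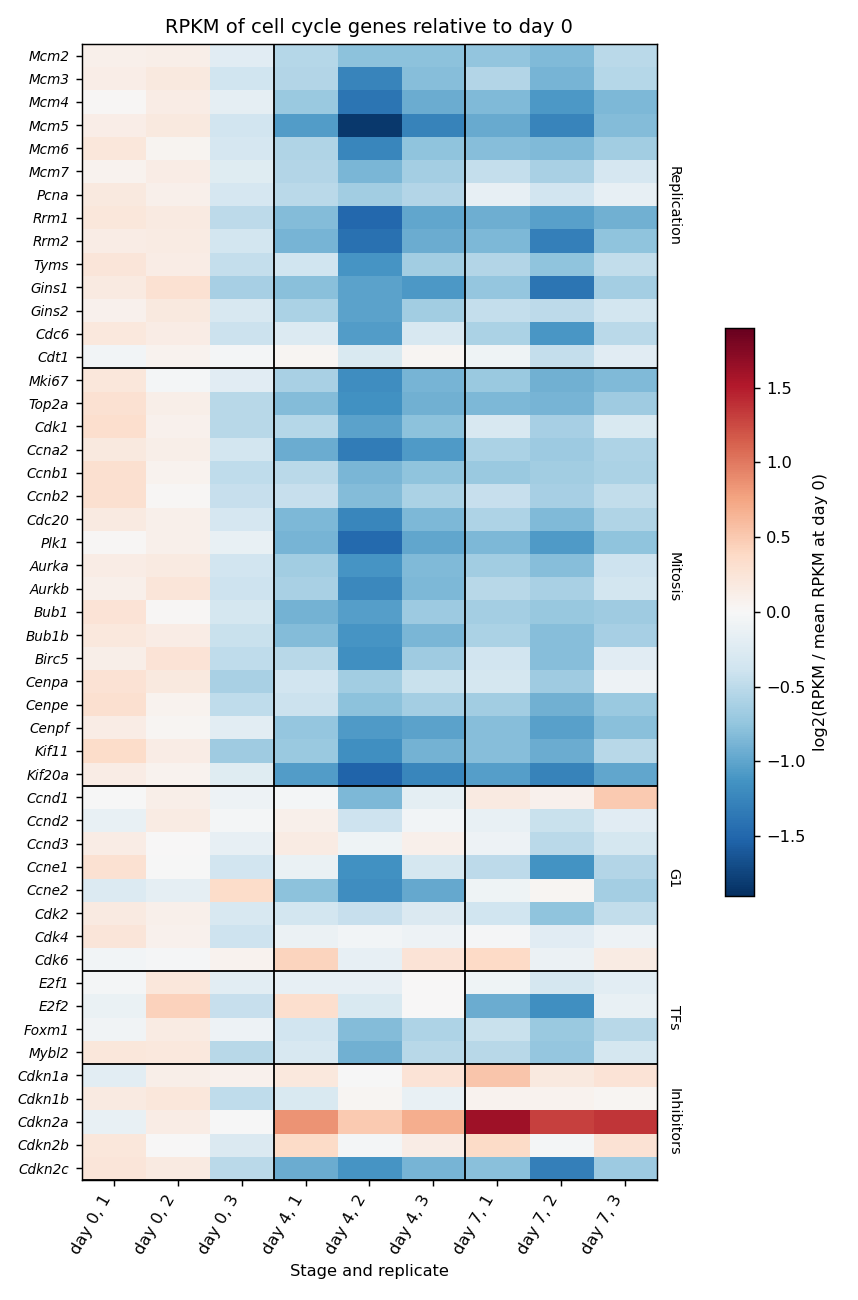
Each row is a gene, grouped by role, and each column a library; the colour gives log2 of RPKM over the gene's day 0 mean. Blue fills most of the replication and mitosis rows at days 4 and 7, and Cdkn2a has the deepest red, at 19.4 and 32.5 RPKM on average against 12.0 at day 0.

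The libraries differed in depth and make-up. Reads on genes, recovered from the CPM values, ranged from 7741204 to 14013219 at day 0, from 32820610 to 37306090 at day 4 and from 10675858 to 15622755 at day 7. Day 4 also lies in tables of its own, so stage, depth and table cannot be told apart there, and day 4 was compared by values and overlap, with no test. Day 0 replicate 3 was the shallowest library and held 12.0% of its reads on Gm42418 and Plekhh2, 2 genes that together took from 1.03% to 8.16% of the other day 0 and day 7 libraries. It was also the lowest day 0 library for 13 of 14 replication genes and 18 of 18 mitosis genes, and after median-of-ratios scaling, which sets the typical gene equal between libraries, for 10 and 13. Without it, 38 of the 49 genes were called lower and 2 higher. The calls over all genes moved too, from 2369 to 4696 lower and from 1602 to 1603 higher. The same scaling moved the median over all genes by 0.10, to −0.01, and the share of called genes that were higher from 40.3% to 52.1%. Among the 49 genes, the calls after that scaling were 31 lower and 4 higher.

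The mean of each of the 14 replication genes was lower at day 7, and 11 of them were called lower, with a median log2 fold change of −0.67. The subunits of the MCM helicase, which unwinds DNA at the fork, were all called, and Mcm5 moved most. Mcm5 had 22.9, 23.9 and 16.3 RPKM in the day 0 libraries, 10.1, 5.90 and 8.73 at day 4, and 10.8, 8.86 and 11.9 at day 7. Every later library was thus below every day 0 library, and the day 4 and day 7 values overlapped. The log2 fold change of Mcm5 to day 7 was −0.98 (standard error 0.17, adjusted p = 6.47e-06). Mcm4 followed at −0.91, then Mcm6 at −0.75, Mcm2 at −0.68, Mcm3 at −0.63 and Mcm7 at −0.45. Exons of Mcm7 hold the microRNA genes Mir25 and Mir93 and overlap neighbours, and 23.3% of its 50-base stretches occur in another gene, so its level is less certain.

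Both subunits of ribonucleotide reductase, which makes deoxynucleotides, moved together. Rrm1, the large subunit, had 50.7, 48.98 and 30.8 RPKM at day 0, 24.6, 15.5 and 21.9 at day 4, and 22.8, 21.2 and 23.2 at day 7. The lowest day 0 library was above the highest later one. Rrm1 fell by 0.92 on the log2 scale (limma adjusted p = 1.44e-05), and Rrm2, the small subunit that limits the enzyme in S phase, fell by 0.95 (adjusted p = 1.49e-05). Tyms, thymidylate synthase, went from 3.92 ± 0.924 to 2.60 ± 0.270 RPKM (SD, n = 3 each; log2 fold change −0.55, limma adjusted p = 0.0176). Gins1, a subunit of the helicase's GINS partner, and Cdc6, which loads the helicase at origins, changed by −0.77 and −0.66. The calls of 4 of these genes were lost both without day 0 replicate 2 and without day 7 replicate 2, where Mcm7 was at −0.37 and −0.38, Tyms at −0.47 and −0.47, Gins1 at −0.61 and −0.57, and Cdc6 at −0.58 and −0.49. Each of these libraries left out gave 7 replication genes called lower. The call of Mcm7 was also lost without day 0 replicate 1 (−0.41), day 7 replicate 1 (−0.45) or day 7 replicate 3 (−0.52), that of Tyms without day 0 replicate 1 (−0.43) or day 7 replicate 1 (−0.57), and that of Cdc6 without day 0 replicate 1 (−0.55). With no library left out, the call of Mcm7 was lost with a replicate block, and those of Gins1 and Cdc6 with all genes with any reads tested.

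The 3 replication genes that did not pass were Pcna, Gins2 and Cdt1. Pcna encodes the sliding clamp of DNA polymerases. Its RPKM (mean ± SD of 3 libraries) was 17.0 ± 3.02 at day 0 and 11.4 ± 0.643 at day 4, with 14.6 ± 1.21 at day 7, a log2 difference from day 0 of −0.21 (standard error 0.17, limma adjusted p = 0.371). It was the one replication gene whose day 0 and day 7 libraries overlapped. Pcna shares 19.1% of its 50-base stretches with other genes, mainly the pseudogene Pcna-ps2. Cdt1, the partner of Cdc6 in helicase loading, had 8.41, 9.13 and 8.49 RPKM in the day 0 libraries, 8.90, 7.12 and 8.94 at day 4, then 8.16, 6.33 and 7.51 at day 7. Day 4 overlapped day 0 and day 7 lay just below it, and the log2 difference to day 7 was −0.24 (limma adjusted p = 0.318); its protein is known to be controlled largely by degradation. Gins2 stood at −0.40 (limma adjusted p = 0.103) and was called lower after median-of-ratios scaling (adjusted p = 0.0444). However, 67.3% of its exonic bases also lie in Gse1 on the other strand, and the sources used here do not state whether counting used strand.

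The means of the 18 mitosis genes were likewise all lower at day 7, and 15 were called lower, with a median of −0.65. Kif20a, a kinesin of cytokinesis, had 26.7, 25.3 and 20.8 RPKM at day 0, 11.6, 8.43 and 10.3 at day 4 and 11.7, 10.1 and 12.3 at day 7. Its day 0 libraries stood well apart from the later 6, and it changed most of the 18, by −1.08 (standard error 0.16, limma adjusted p = 2.96e-07). Of its exonic bases, 29.3% are shared with Cdc23 on the other strand. Plk1, a kinase that drives entry into and exit from mitosis, had 17.9, 18.9 and 15.9 RPKM at day 0, 9.51, 6.34 and 8.82 at day 4, and 9.73, 8.29 and 10.4 at day 7. Its day 0 libraries were all above the later 6, where day 4 and day 7 overlapped, and it changed by −0.88 (adjusted p = 4.14e-05). Mki67, which encodes the proliferation marker Ki-67, had 16.4, 13.7 and 12.2 RPKM at day 0, 9.20, 6.20 and 7.64 at day 4, and 8.66, 7.52 and 7.85 at day 7. Day 0 was again above all later libraries, and Mki67 changed by −0.80 on the log2 scale (standard error 0.16, limma adjusted p = 5.19e-05).

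The other mitosis genes called lower spanned the stages of division. Top2a, which untangles sister chromatids, changed by −0.76, and the kinetochore genes Cenpf and Cenpe by −0.87 and −0.71. The spindle motor gene Kif11 changed by −0.70. Bub1 and Bub1b, of the spindle checkpoint, both changed by −0.65, as did Cdc20, which activates the ubiquitin ligase that ends mitosis. The cyclin genes Ccna2, Ccnb1 and Ccnb2 changed by −0.60, −0.60 and −0.47, and the Aurora kinase genes Aurka and Aurkb by −0.59 and −0.46. Ccnb1 shares 23.4% of its 50-base stretches with other genes, mainly the pseudogene Ccnb1-ps. The call of Ccnb1 was lost without day 0 replicate 1 (−0.43) or day 7 replicate 1 (−0.58), and that of Aurka without day 0 replicate 2 (−0.50) or day 7 replicate 2 (−0.50). Those of Ccnb2 and Aurkb were lost without any single library other than day 0 replicate 3, at −0.31 to −0.51 and −0.34 to −0.54. Both were also lost with a replicate block and with all genes with any reads tested, and that of Aurkb with the RPKM table.

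Cdk1, Birc5 and Cenpa did not pass. Cdk1, the kinase that these cyclins activate, had 24.1, 20.5 and 13.3 RPKM at day 0, 13.2, 9.49 and 11.2 at day 4 and 15.7, 12.5 and 15.9 at day 7. The day 0 and day 7 values overlapped through day 0 replicate 3, and the log2 fold change was −0.36 (standard error 0.17, limma adjusted p = 0.117). Without that library Cdk1 was called lower at −0.60 (adjusted p = 0.00215). Birc5, survivin, and Cenpa, the centromeric histone, had log2 fold changes of −0.42 and −0.31, and without the same library they were called lower at −0.64 and −0.59.

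**Figure D2:**
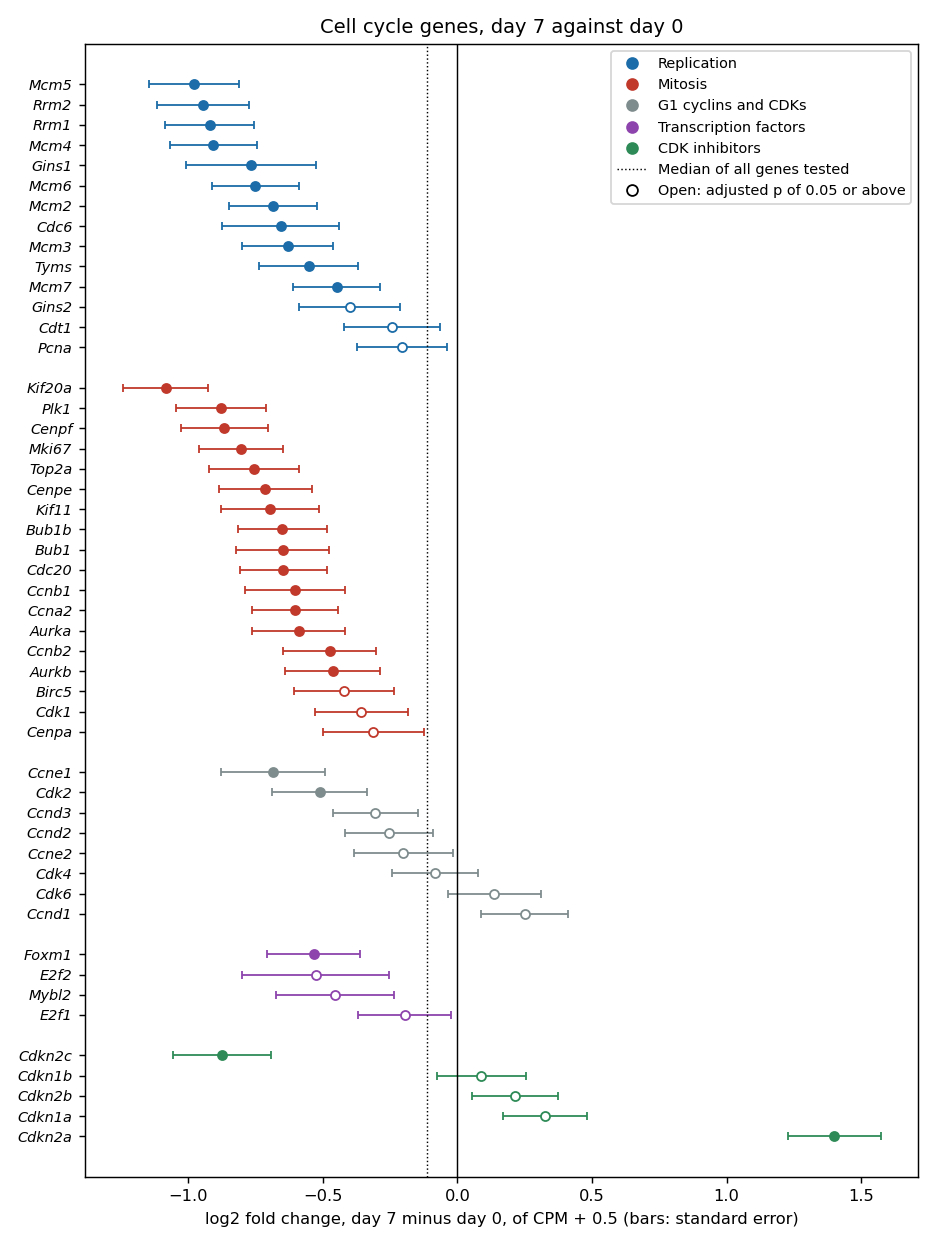
Points give the log2 fold change of CPM + 0.5 from day 0 to day 7 for each gene, with standard error bars and colours by role; filled points passed an adjusted p of 0.05. All replication and mitosis genes lie left of the median of all genes at −0.11, while Cdkn2a stands alone at 1.40 and Cdkn2c lies at −0.88.

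Relative to day 0, the 14 replication and 18 mitosis genes stood at similar values in each day 4 and day 7 library. To compare them, each gene's RPKM was taken as a percentage of its day 0 mean, which fixes the day 0 average of both groups at 100%. These percentages were averaged over a group. For replication this mean was 110, 111 and 79.7% in the day 0 libraries, 67.9, 48.2 and 61.4% at day 4, and 65.9, 55.3 and 69.1% at day 7. For mitosis it was 116, 108 and 76.2% at day 0, 62.5, 46.9 and 56.5% at day 4, and 64.8, 56.7 and 68.4% at day 7. Each day 7 library was below each day 0 library in both groups. After median-of-ratios scaling the day 0 spread narrowed to 95.1–103% for replication and 91.2–108% for mitosis, and the day 7 values were 64.4–73.7% and 66.3–73.2%. The ratio of the mitosis to the replication value stayed between 0.921 and 1.06 in the 9 libraries. It was 0.956–1.06 at day 0, 0.921–0.974 at day 4 and 0.983–1.03 at day 7. Thus the day 0 ratios overlapped those of both later stages, whereas the day 7 ratios all lay above those of day 4. The lists of other replication and other mitosis genes, read below, were less alike at day 7, with median log2 fold changes of −0.34 and −0.54.

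**Figure D3:**
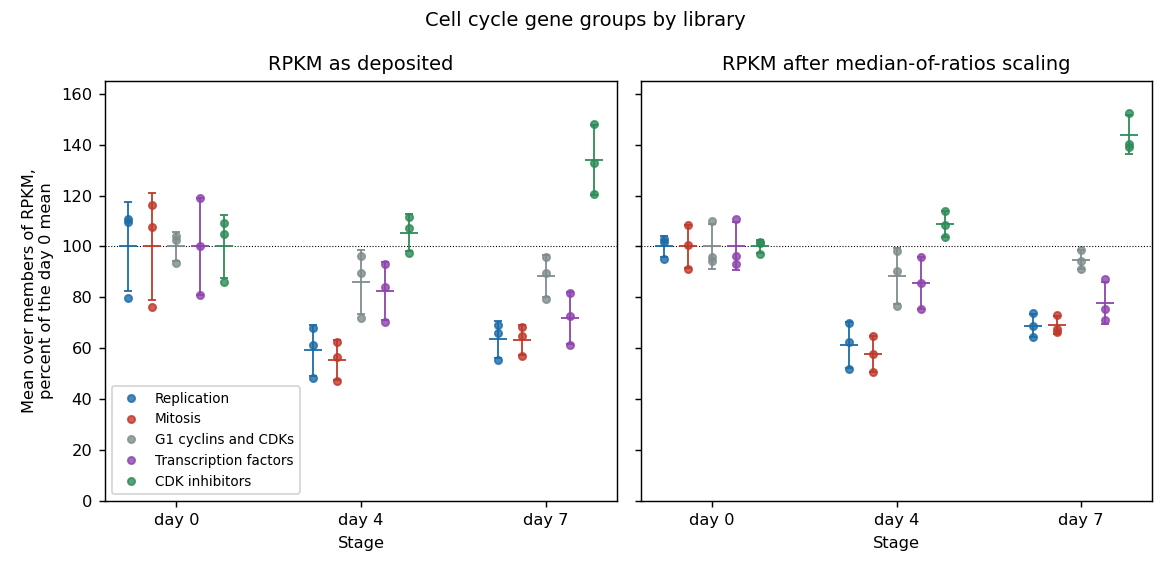
Points give, for each library, the mean over a group's genes of RPKM as a percentage of the gene's day 0 mean, with the stage mean and SD; the left panel uses RPKM as deposited and the right panel median-of-ratios scaling. Replication and mitosis genes sit together at days 4 and 7, with means from 55.3 to 63.5% as deposited, and the inhibitors' mean, which includes Cdkn2a, is 134% at day 7.

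The lower levels were already present at day 4. In 11 of 14 replication genes and 16 of 18 mitosis genes every day 4 library was below every day 0 library, as in 21.9% of the 12782 genes whose mean CPM over the 9 libraries reached 1. The median gene of the replication group stood at 57.9% of its day 0 mean, that of the mitosis group at 54.4%, and the median of all genes at 95.8%. Over the 49 genes the day 4 libraries were below day 0 in 30 and above in 1, Cdkn2a, whereas 21.6% of all genes were above. From day 4 to day 7 the means of 12 of 14 replication genes and 17 of 18 mitosis genes went up, with medians of 107% and 113% of day 4, against 95.5% for all genes. For 39 of the 49 genes the day 4 and day 7 libraries overlapped. Every day 7 library exceeded every day 4 library for 2 replication genes, Pcna and Gins2, and for 4 mitosis genes, Ccna2, Cdc20, Aurkb and Bub1b. With Ccnd1, Ccne2 and Cdkn2a these made 9 of the 49 genes, where 13.6% of all genes did so, and the count was 14 after median-of-ratios scaling, 21 without day 7 replicate 2 and 15 without day 4 replicate 1. Ccna2, for example, had 15.4, 11.8 and 14.1 RPKM at day 4 and 19.6, 18.4 and 19.7 at day 7, still under the 33.6, 32.0 and 23.3 of day 0. Of its exonic bases, 12.5% lie in Exosc9 on the other strand. Only Ccnd3 had every day 7 library below every day 4 library, against 25.0% of all genes. Without day 4 replicate 2 there were 8 such genes, again with no share of all genes taken. Day 4 replicate 2 was the lowest of its stage for 13 of 14 replication and 18 of 18 mitosis genes. Between day 0 and day 7 the libraries did not overlap for 30 genes that were lower, 13 replication and 13 mitosis genes among them, and for 2 that were higher, Cdkn2a and Cdkn1a, where 25.1% and 17.1% of all genes did so.

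Of the 8 G1 cyclins and CDKs, Ccne1 and Cdk2 were called lower, near the 18.6% of all genes, with a group median of −0.23. Ccne1, cyclin E1, went from 7.95 ± 1.77 to 4.88 ± 1.10 RPKM (SD, n = 3 each; log2 fold change −0.68, limma adjusted p = 0.00467), and its partner Cdk2 from 11.6 ± 1.94 to 8.05 ± 1.08 (SD, n = 3 each; −0.51, adjusted p = 0.0221). Both calls were lost without day 0 replicate 1 (−0.53 and −0.42) or day 7 replicate 2 (−0.49 and −0.40), that of Cdk2 also without day 0 replicate 2 (−0.46) or day 7 replicate 3 (−0.54), and without day 0 replicate 3 the group had 4 calls, with Ccnd3 and Cdk4 added. Ccnd1, cyclin D1, had the highest mean of the 49 genes at day 0 and at day 7. It had 146, 158 and 137 RPKM at day 0, 143, 81.7 and 129 at day 4 and 166, 155 and 207 at day 7. Its log2 fold change was 0.25 (standard error 0.16, limma adjusted p = 0.249), and after median-of-ratios scaling it was called higher at 0.36 (adjusted p = 0.0247). Of the exonic bases of Ccnd1, 23.4% lie in LTO1 on the other strand. Ccnd2 and Ccnd3, the other D-type cyclin genes, had log2 fold changes of −0.25 and −0.31, and their kinases Cdk4 and Cdk6 −0.08 and 0.14. The sign for Cdk4 turned with the scaling, to 0.03 after median-of-ratios scaling, and 19.7% of its exonic bases lie in Tspan31 on the other strand.

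Ccne2, cyclin E2, was lowest at day 4. It had 7.35, 7.75 and 11.2 RPKM at day 0, 5.09, 3.87 and 4.46 at day 4, and 8.25, 9.0 and 5.58 at day 7. The day 4 libraries were below all others and day 7 overlapped day 0, as for Pcna and Aurkb, with a difference of −0.20 on the log2 scale (standard error 0.18, limma adjusted p = 0.436). Of its exonic bases, 17.4% are shared with Ints8 on the other strand.

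Among the transcription factors, Foxm1, which drives mitosis genes, was called lower. Its RPKM values were 4.42, 5.14 and 4.32 at day 0, 3.58, 2.62 and 3.08 at day 4, and 3.43, 2.84 and 3.22 at day 7. Both later stages lay below day 0 without overlap, and Foxm1 changed by −0.53 (standard error 0.17, adjusted p = 0.0146 by limma). The call was lost without day 0 replicate 2 (−0.46), day 7 replicate 2 (−0.46) or day 7 replicate 3 (−0.55). E2f1, an activator of replication genes, had 8.07 ± 1.18, 7.51 ± 0.509 and 6.99 ± 0.603 RPKM at days 0, 4 and 7 (SD, n = 3 each), and its difference of −0.20 on the log2 scale missed the threshold (limma adjusted p = 0.418). Mybl2, or B-Myb, stood at −0.45 (limma adjusted p = 0.113) and was called lower without day 0 replicate 3, at −0.68. It shares 19.3% of its 50-base stretches with other genes, mainly Gm3320. E2f2 was low, with as few as 10 reads in a library, and at −0.53 it missed the threshold (limma adjusted p = 0.140).

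The CDK inhibitors did not move as one group. Cdkn2a, on chromosome 4 from 89274471 to 89294653 on the reverse strand of GRCm38, encodes the Ink4 inhibitor p16Ink4a and, in another reading frame, p19Arf, which stabilizes p53. It had 10.9, 13.3 and 11.9 RPKM at day 0, 21.7, 17.0 and 19.4 at day 4 and 36.7, 29.7 and 30.9 at day 7. The 3 stages did not overlap, and the gene rose to day 7 by 1.40 on the log2 scale (standard error 0.17, limma adjusted p = 4.20e-09). Over the alternatives the value lay between 1.31 and 1.56. The deposited row sums both transcripts, so they cannot be told apart. Its neighbour Cdkn2b, which encodes p15Ink4b, had 61.8 ± 10.3, 69.4 ± 9.85 and 71.6 ± 10.1 RPKM at days 0, 4 and 7 (SD, n = 3 each). Its difference of 0.21 on the log2 scale missed the threshold (limma adjusted p = 0.329). After median-of-ratios scaling it was called higher at 0.32 (adjusted p = 0.0135).

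Cdkn2c, the Ink4 family gene of p18Ink4c and a known E2F target, moved the opposite way from Cdkn2a. It had 22.5, 21.5 and 13.5 RPKM at day 0, 9.93, 8.84 and 10.4 at day 4, and 11.0, 7.81 and 11.9 at day 7. Every later library was below day 0, and Cdkn2c changed by −0.88 (standard error 0.18, limma adjusted p = 0.000146), which is within the range of the replication and mitosis genes. Cdkn1a, which encodes p21 and is a p53 target, had 50.05, 61.8 and 60.6 RPKM at day 0, 65.9, 57.2 and 68.7 at day 4, and 82.5, 65.1 and 68.9 at day 7. Day 7 was above day 0 without overlap, but at 0.33 on the log2 scale it missed the threshold (standard error 0.16, limma adjusted p = 0.107). It was called higher after median-of-ratios scaling at 0.44 (adjusted p = 0.0313) and without day 0 replicate 3 at 0.37 (adjusted p = 0.0269). Cdkn1b, which encodes p27, had means of 14.9 ± 3.64, 13.6 ± 1.56 and 15.5 ± 0.240 RPKM over the stages (SD, n = 3 each). Its difference of 0.09 missed the threshold (limma adjusted p = 0.733), and it turned to −0.13 without day 0 replicate 3.

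**Figure D4:**
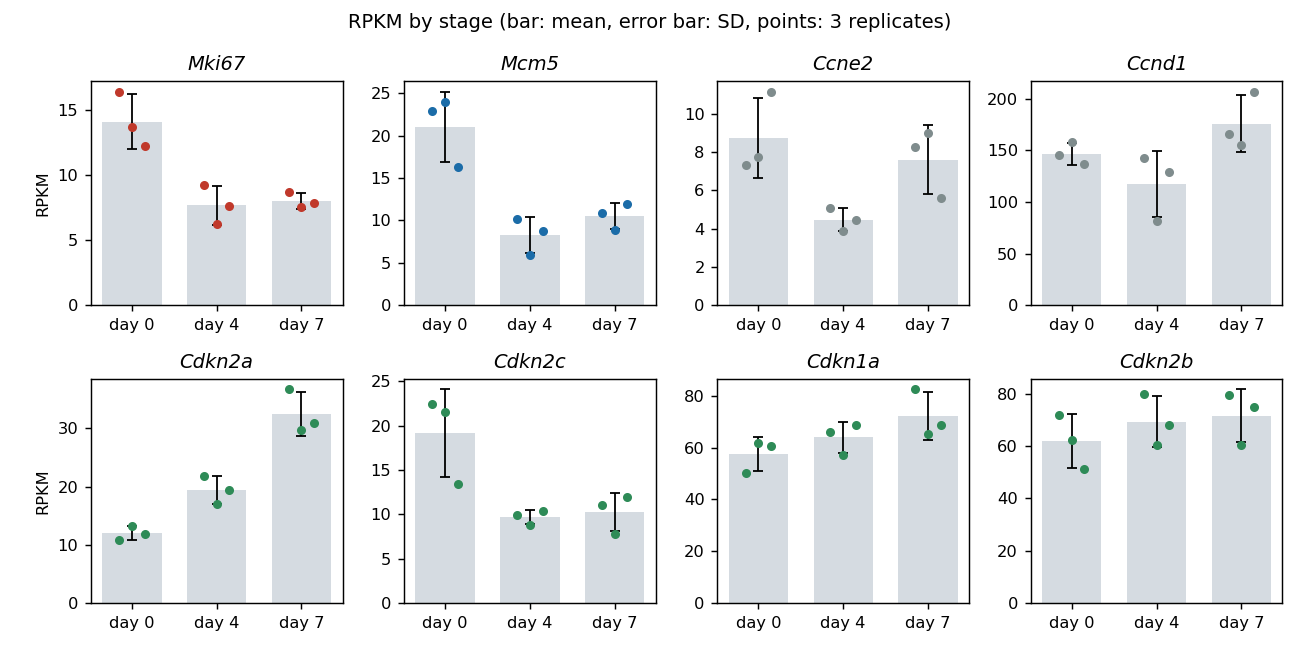
Bars give the mean RPKM with SD over 3 libraries at each stage, and points give the libraries, for 8 genes with unlike courses; each panel has its own scale from 0. Mki67, Mcm5 and Cdkn2c are lower at both later stages, Ccne2 at day 4 alone, and Cdkn2a steps up at each stage from 12.0 to 19.4 to 32.5 RPKM.

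The promoters of these genes were searched for the elements named above, because the replication and mitosis groups are known to use different ones. RefSeq promoters on GRCm38.p6, from 250 bases before the start site to 50 after it, were given for 39 of the 49 genes, and for 6 of these with more than 1 start. Ccnd1, Ccnd2, Ccne2, Aurkb, Ccna2, Kif20a, Mcm4, Gins1, Gins2 and Foxm1 were not among them. An E2F site was counted for TTTCCCGC, TTTGGCGC, TTTGCCGC or TTTCGCGC, a CHR for TTTGAA and an NF-Y site for CCAAT, on either strand, and E2F matches on the 2 strands may overlap each other. Of 15 mitosis genes, 11 held a CHR and a CCAAT together (73.3%), compared with 9.0% of 27025 genes, and 1 held an E2F match. Of 11 replication genes, 6 held an E2F match (54.5%), compared with 2.6% of all genes, and 1 held a CHR. CCAAT was common to both, in 14 mitosis and 8 replication genes, against 41.1% of all genes. Of the 5 inhibitors, 1 held an E2F match (Cdkn2a) and 1 a CHR (Cdkn2b), and the Cdkn2c promoters held neither. A match describes letters in the window and does not show that a factor bound there.

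**Figure D5:**
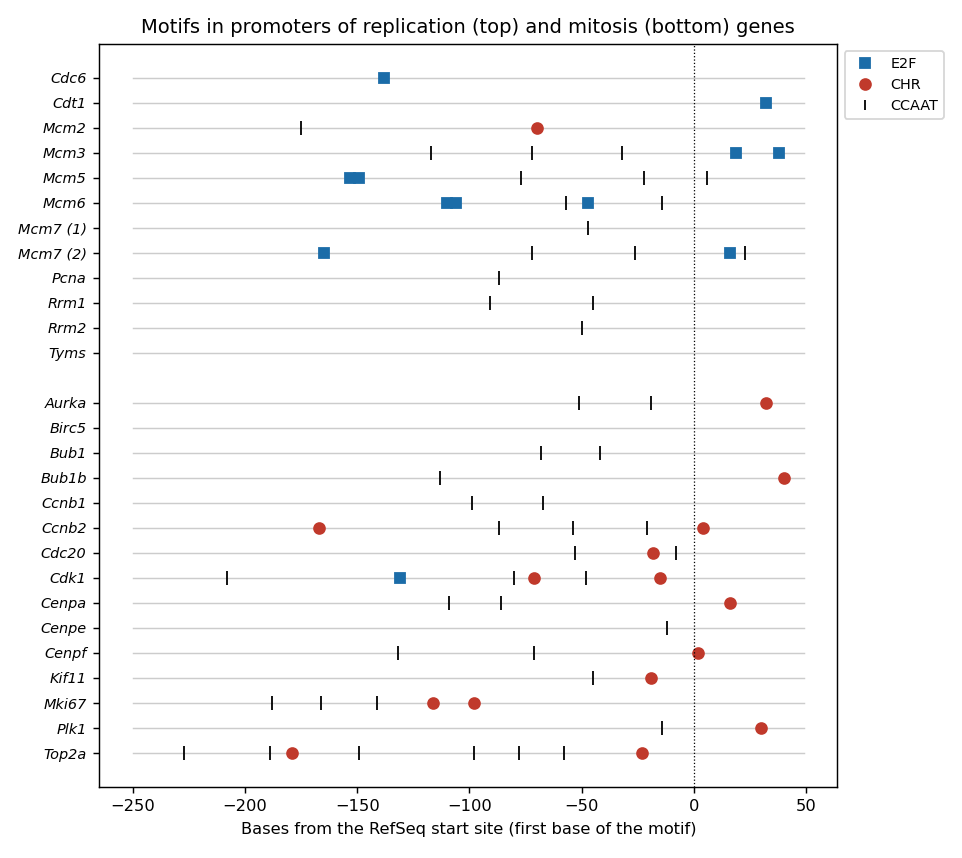
Each line is a RefSeq promoter of a replication gene (top) or a mitosis gene (bottom), and marks give the first base of each motif relative to the start site at 0; Mcm7 has more than 1 start. Red CHR marks lie mostly in the mitosis rows (11 of 15 genes) and blue E2F marks in the replication rows (6 of 11 genes).

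The mitosis promoters with both elements are shown for the 3 such genes with the most negative fold changes, with CHR and CCAAT matches of either strand in capitals, 5′ to 3′ on the gene's strand.
Plk1 (GRCm38.p6, chr7:122159185-122159484, forward strand): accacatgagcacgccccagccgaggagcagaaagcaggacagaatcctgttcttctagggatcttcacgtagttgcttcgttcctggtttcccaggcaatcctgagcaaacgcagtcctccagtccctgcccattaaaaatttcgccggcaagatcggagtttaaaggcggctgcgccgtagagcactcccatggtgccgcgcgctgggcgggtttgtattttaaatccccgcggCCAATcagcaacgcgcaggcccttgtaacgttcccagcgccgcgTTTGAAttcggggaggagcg
Cenpf (GRCm38.p6, chr1:189688037-189688336, reverse strand): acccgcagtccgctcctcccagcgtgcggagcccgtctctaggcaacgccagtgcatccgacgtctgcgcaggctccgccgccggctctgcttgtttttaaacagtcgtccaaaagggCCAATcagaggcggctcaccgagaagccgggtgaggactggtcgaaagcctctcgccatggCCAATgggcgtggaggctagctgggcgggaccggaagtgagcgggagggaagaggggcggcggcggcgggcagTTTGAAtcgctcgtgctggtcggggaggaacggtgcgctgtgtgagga
Mki67 (GRCm38.p6, chr7:135716330-135716629, reverse strand): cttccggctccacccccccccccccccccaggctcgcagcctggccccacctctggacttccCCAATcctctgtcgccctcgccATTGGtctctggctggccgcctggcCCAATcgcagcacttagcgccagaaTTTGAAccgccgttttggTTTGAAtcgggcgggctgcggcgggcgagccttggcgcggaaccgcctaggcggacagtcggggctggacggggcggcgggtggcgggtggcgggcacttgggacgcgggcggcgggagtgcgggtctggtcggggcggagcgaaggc
With the start site as position 0, a CCAAT of Plk1 began at −14 and its CHR at 30, and the CHR of Cenpf began at 2. Mki67 held 2 CHR matches, at −116 and −98, downstream of 3 CCAAT matches.

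The replication promoters with an E2F match are shown likewise for the 3 such genes with the most negative fold changes, with E2F and CCAAT matches in capitals.
Mcm5 (GRCm38.p6, chr8:75109259-75109558, forward strand): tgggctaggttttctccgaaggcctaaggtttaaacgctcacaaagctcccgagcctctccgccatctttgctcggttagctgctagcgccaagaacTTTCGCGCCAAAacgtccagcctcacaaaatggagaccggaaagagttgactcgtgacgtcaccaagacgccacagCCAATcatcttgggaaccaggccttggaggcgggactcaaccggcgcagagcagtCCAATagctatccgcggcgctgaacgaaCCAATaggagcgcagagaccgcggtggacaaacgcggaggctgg
Mcm6 (GRCm38.p6, chr1:128359656-128359955, reverse strand): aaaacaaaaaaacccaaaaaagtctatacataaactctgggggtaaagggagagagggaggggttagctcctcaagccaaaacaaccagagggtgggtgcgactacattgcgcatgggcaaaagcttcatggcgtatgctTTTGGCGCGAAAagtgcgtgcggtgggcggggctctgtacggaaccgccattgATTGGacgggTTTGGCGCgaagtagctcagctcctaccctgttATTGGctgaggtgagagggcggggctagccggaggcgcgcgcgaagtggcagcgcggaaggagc
Cdc6 (GRCm38.p6, chr11:98907901-98908200, forward strand): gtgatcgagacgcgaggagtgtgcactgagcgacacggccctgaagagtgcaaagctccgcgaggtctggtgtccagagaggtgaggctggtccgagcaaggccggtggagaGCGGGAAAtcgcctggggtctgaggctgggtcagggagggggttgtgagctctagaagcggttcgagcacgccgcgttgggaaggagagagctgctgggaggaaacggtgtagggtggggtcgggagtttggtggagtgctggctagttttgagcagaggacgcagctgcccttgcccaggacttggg
The Mcm5 and Mcm6 promoters each held a pair of overlapping E2F matches on opposite strands, at positions −153 and −149 in Mcm5 and −110 and −106 in Mcm6, and Mcm6 held another at −47. Cdc6 had 1 E2F match and no CCAAT in this window. In the GENCODE annotation Cdc6 begins upstream of the window, at 98907801, and bases before the window were not searched.

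Both starts of Cdkn2a are shown because it was the gene that rose, and because its 2 known products begin at different promoters. The upstream start, which opens the p19Arf transcript, has the higher coordinate on this reverse-strand gene.
Cdkn2a (GRCm38.p6, chr4:89294570-89294869, reverse strand): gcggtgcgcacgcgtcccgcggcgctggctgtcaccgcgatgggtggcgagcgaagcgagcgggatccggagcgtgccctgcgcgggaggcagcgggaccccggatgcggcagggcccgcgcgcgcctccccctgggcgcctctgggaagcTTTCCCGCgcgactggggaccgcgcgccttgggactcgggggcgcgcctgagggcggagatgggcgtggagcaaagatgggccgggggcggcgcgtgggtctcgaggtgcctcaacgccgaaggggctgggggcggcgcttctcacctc
Cdkn2a (GRCm38.p6, chr4:89282143-89282442, reverse strand): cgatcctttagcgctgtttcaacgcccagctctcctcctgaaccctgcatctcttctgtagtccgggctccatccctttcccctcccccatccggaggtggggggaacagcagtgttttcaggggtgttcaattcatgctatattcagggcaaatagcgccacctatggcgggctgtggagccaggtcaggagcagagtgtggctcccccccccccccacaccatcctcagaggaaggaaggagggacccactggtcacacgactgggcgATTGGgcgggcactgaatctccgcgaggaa
The upstream promoter held 1 E2F match and the downstream promoter 1 CCAAT, and neither held a CHR.

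Genes outside the 49 were read from lists of the same pathway. Of 38 other mitosis genes, 26 were called lower and 0 higher at day 7 by limma, also 0 higher at an unadjusted p under 0.05, with a median of −0.54. Ckap2, a spindle microtubule protein, had the largest fall, from 25.1 ± 5.31 to 11.7 ± 0.694 RPKM (SD, n = 3 each; log2 fold change −1.06, limma adjusted p = 1.27e-06). Of 38 other replication genes, 7 were called lower and 0 higher, also 0 higher at an unadjusted p under 0.05, with a median of −0.34. That count is near the 18.6% of all genes, whereas at day 4, 22 of the 38 lay below every day 0 library, against 21.9% of all genes. Pole, the catalytic subunit of the leading-strand polymerase, had the largest fall of these, from 3.18 ± 0.515 to 1.40 ± 0.173 RPKM (SD, n = 3 each; −1.15, adjusted p = 6.47e-07). Of 29 other regulators, 8 were lower and 2 higher, against 18.6% and 12.6% of all genes. The atypical repressor E2f7 had the largest fall (−0.90, limma adjusted p = 0.000828), and the genes that rose were Ccng2, an unconventional cyclin linked to arrest (0.61, adjusted p = 0.00586), and the retinoblastoma gene Rb1 (0.59, adjusted p = 0.00862), named after its value was seen.

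Since Cdkn2a encodes p19Arf and Cdkn1a is a p53 target, 15 other p53 target genes were also read. By limma 9 of them were lower at day 7 and 2 were higher, against 18.6% and 12.6% of all genes, and 4 did not pass. Ccng1, named because it also stands among the regulators above, is counted as lower in both lists. The median log2 fold change of the 15 genes was −0.46. The largest fall was that of Plk2, with 59.7, 53.2 and 37.4 RPKM at day 0, 53.5, 44.8 and 49.1 at day 4 and 20.9, 22.3 and 22.2 at day 7 (log2 fold change −1.17, limma adjusted p = 9.11e-08). Its day 0 and day 4 values overlapped and day 7 was below both. The genes that rose were Pmaip1, which encodes the pro-apoptotic Noxa, by 1.10 (limma adjusted p = 8.52e-07), and Gdf15, a stress cytokine gene, by 0.80 (adjusted p = 0.000300), the latter named after its value was seen.

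Markers of the labelled cell type and of others were read in the same fit. Of 10 osteoblast markers 9 were higher at day 7, and their summed RPKM went from 4498–5272 at day 0 to 14776–18628. All 8 tested of 10 macrophage markers were higher, with a summed RPKM of 45.6–77.3 in the day 0 libraries, 87.4–96.5 at day 4 and 84.9–114 at day 7. The most abundant were Lyz2, from 47.7 ± 14.3 to 79.4 ± 11.7 RPKM, and Cd68, from 3.82 ± 0.679 to 6.95 ± 0.693 (SD, n = 3 each). Of 8 osteoclast markers 4 were tested, with 3 higher and 1 lower, and their sum, mostly Ctsk, which osteoblasts also express, was 102–134 RPKM at day 0 and 234–244 at day 7. Acp5 rose from 0.745 ± 0.323 to 6.59 ± 1.5 RPKM (SD, n = 3 each). Of 6 chondrocyte markers 5 were tested, with 3 lower and 2 higher, and Col2a1, the main cartilage collagen gene, had 420, 140 and 158 RPKM in the day 0 libraries, 145, 33.8 and 64.3 at day 4, then 92.8, 29.2 and 38.5 at day 7. Acan, of the same list, was higher at day 7 (log2 fold change 1.06). Of 6 muscle markers 2 were tested, Acta1 and Des, and both were higher, at a summed 1.81–3.23 RPKM at day 0 and 4.04–7.74 at day 7. Endothelial markers summed to at most 2.79 RPKM in any library, with Tie1 and Emcn listed at 0 in all 9 and Egfl7 and Tek the most abundant. Adipocyte markers summed to at most 3.30 RPKM, with Cidec and Lep at 0 and Fabp4 and Cfd the most abundant, and erythroid markers to at most 0.811, with Hbb-bt at 0 and Alas2 and Epor the most abundant. The part of these other cells in the cell cycle values was not tested.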

How the data were processed

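Per the labels and the methods, RNA was depleted of ribosomal RNA, and the authors aligned reads to GRCm38 with STAR 2.0.4b and counted them per gene with featureCounts (version written as 1.45 in the submitters' processing notes). Whether strand was used is not given in the sources used here. The authors deposited CPM values (counts per gene scaled to the reads on genes) and RPKM values (CPM divided by gene length), with day 0 and day 7 in one table of each unit (40548 genes) and day 4 in another (40526 genes). Lines repeated for a gene were identical and used once. In each library 100% of CPM values were whole multiples of 1 read within 0.05 read, so reads were recovered. No 2 libraries of a stage agreed within counting noise (chi-square over degrees of freedom of 11.7 to 203).

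The test of day 7 against day 0 used limma 3.58.1 (R 4.3.3) with a variance trend on log2(CPM + 0.5), for genes whose mean CPM was 1 or more. Prior degrees of freedom were 42.9 and residual ones 4, so a gene's own replicates count little in its p-value. Alternatives were pseudocounts of 0.1 and 1, any reads or a mean CPM of at least 5, the RPKM table, median-of-ratios and TMM scaling, edgeR 4.0.16 and DESeq2 1.42.0 on recovered reads, voomWithQualityWeights, which the study used, robust variances, a replicate block, each library left out and, chosen after seeing the data, totals without Gm42418 and Plekhh2.

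The 49 genes, the other lists and the comparisons were chosen with earlier results of these data known. Any of the 49 could be named, of other pathway lists the called genes with the largest rise and the largest fall, and of marker lists the 2 genes with the highest mean RPKM; exceptions are stated. The 49 genes matched GENCODE M21 on GRCm38, where exons of 16 overlap another gene and 12 share over 10% of their 50-base stretches with others. PCR copies were not marked in the reads.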

Additional observations from a re-analysis of the deposited data

How the results depend on the processing

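Over the 19 alternatives, the 49 genes gave 840 values with the same direction and side of the threshold, 35 that newly passed, 45 that no longer passed and 9 that turned direction. The 9 were not called on either side. They were Cdk4 (0.0264 with median-of-ratios scaling, 0.0233 with TMM, 0.0187 with edgeR, 0.02035 with DESeq2, 0.0255 with voomWithQualityWeights and 0.0458 without day 0 replicate 1), Ccne2 (0.0554 with voomWithQualityWeights and 0.0032 without day 7 replicate 3) and Cdkn1b (−0.13 without day 0 replicate 3). Over the libraries left out, Cdk4 ranged from −0.27 to 0.0458, Ccne2 from −0.33 to 0.0032 and Cdkn1b from −0.13 to 0.21. Cdk4 at −0.27, without day 0 replicate 3, kept its direction and was called lower. With median-of-ratios, TMM, edgeR, DESeq2 and voomWithQualityWeights, the count of all genes higher at day 7 moved from 1602 to 2843, 2825, 2818, 2581 and 3148. In the same order, the members higher moved from 1 to 4, 4, 4, 4 and 5, the G1 genes higher from 0 to 1, 1, 1, 1 and 2, and the inhibitors higher from 1 to 3 in each. With voomWithQualityWeights 2 transcription factors were lower. Members with day 7 above day 4 went from 9 to 14 with median-of-ratios scaling, TMM and the totals without Gm42418 and Plekhh2, where the share of all genes was not taken. The scaling itself differs between these settings, and the cause was not otherwise tested.

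Leaving out 1 library gave 1174 to 1603 genes higher and 1527 to 4696 lower, of which day 0 replicate 2 gave 1527, day 0 replicate 3 gave 4696 and day 7 replicate 2 gave 1548. Members higher ranged from 1 to 2 and lower from 20 to 38, replication genes lower from 7 (without day 0 replicate 2 or day 7 replicate 2) to 13, mitosis genes from 12 to 18, G1 genes from 0 to 4, transcription factors from 0 to 2 and inhibitors higher from 1 to 2. Members with day 4 above day 0 ranged from 1 to 3, with day 4 below day 0 from 30 to 40, with day 7 below day 4 from 1 to 8, and with day 7 above day 4 from 9 to 21. Leaving out a library can only keep or raise these 4 overlap counts, so the check could not show them weakening. The share of all genes was not taken for them. Same-numbered day 0 and day 7 libraries did not deviate together (r of −0.017, −0.181 and −0.444). With 3 libraries per stage these values cannot show whether same-numbered libraries share a cell preparation. The replicate block gave 1463 genes higher and 1950 lower, and 1 member higher and 27 lower (10 replication, 13 mitosis, 2 G1, 1 transcription factor and 1 inhibitor). E2f2, with as few as 10 reads, is the member whose level depth limits most.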
